A study of Mus musculus with 5 samples.

Results

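The 9 genes described here encode the checkpoint ligands PD-L1 and PD-L2 and the core of the interferon gamma signalling chain. They were taken from the deposited count table by their gene names, as Cd274, Pdcd1lg2, Ifngr1, Ifngr2, Jak1, Jak2, Irf1, Irf2 and Socs1, and all 9 were found, each as 1 of the 54532 genes in the table. RNA-seq was run on 5 mouse lung tumours of the disease state SCLC, small cell lung cancer, a cancer of neuroendocrine cells. All tumours carried the genotype RPP, whose letters the labels do not expand, and 2 were labelled vehicle and 3 LSN, which the design text describes as inhibition of Aurora A, a kinase of the mitotic spindle. Tumours were frozen at necropsy, and the labels state no mouse strain, age, dose or treatment time. The labels call the cell type a tumour cell, but each sample was a piece of lung tumour, and no label ties tumours to animals, so the p-values below reflect only the spread among these pieces, which may be technical in part.

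Interferon gamma is secreted mainly by T and NK cells and binds a receptor built of the subunits IFNGR1 and IFNGR2. The kinases JAK1 and JAK2, held on these subunits, then pass the signal to the nucleus, where gamma-activated sites (GAS) in DNA are bound and Irf1 is switched on, whose product binds interferon-stimulated response elements (ISRE). PD-L1, a surface protein that restrains T cells through the receptor PD-1, is a textbook product of this chain in tumour cells, while IRF2 competes with IRF1 for the same DNA elements and SOCS1 blocks the JAK kinases. The title of the series names interferon signalling and PD-L1 blockade, and the comparison of LSN with vehicle asks whether this chain and its ligands differed in exposed tumours.

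The start region of Cd274, the gene with the smallest p, is shown first, with those of Irf1, Irf2 and Socs1, the genes whose regions held a motif of the chain. The search used 250 bases before each start site in the RefSeq promoter table (build GRCm38.p6), where all 9 genes had an entry and Irf1 had more than 1 start. The ISRE core was searched as GAAA, any 2 bases, then GAAA, and the GAS as TTCNNNGAA, on both strands. The sequences below run 5′ to 3′ on the strand of the gene, with matches in capitals; adjacent or overlapping matches merge into 1 run of capitals. Windows lie at chr19:29367188-29367437 (plus strand) for Cd274, chr11:53769764-53770013 (plus strand) for Irf1, chr8:46739495-46739744 (plus strand) for Irf2 and chr16:10785537-10785786 (minus strand) for Socs1.
Cd274: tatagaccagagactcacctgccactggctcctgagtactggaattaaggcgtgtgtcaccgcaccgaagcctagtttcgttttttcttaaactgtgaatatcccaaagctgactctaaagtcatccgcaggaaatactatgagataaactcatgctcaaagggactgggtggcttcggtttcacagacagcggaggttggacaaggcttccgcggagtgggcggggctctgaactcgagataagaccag
Irf1: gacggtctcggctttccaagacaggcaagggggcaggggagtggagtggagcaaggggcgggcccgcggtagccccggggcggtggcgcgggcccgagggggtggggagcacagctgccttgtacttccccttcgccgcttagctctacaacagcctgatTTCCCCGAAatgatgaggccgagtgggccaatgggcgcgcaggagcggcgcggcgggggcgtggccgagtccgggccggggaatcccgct
Irf2: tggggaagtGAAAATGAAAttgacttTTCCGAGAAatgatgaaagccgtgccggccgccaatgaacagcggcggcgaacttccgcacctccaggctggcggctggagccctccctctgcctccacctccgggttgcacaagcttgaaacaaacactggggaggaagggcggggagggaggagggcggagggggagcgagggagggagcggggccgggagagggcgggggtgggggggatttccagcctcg
Socs1: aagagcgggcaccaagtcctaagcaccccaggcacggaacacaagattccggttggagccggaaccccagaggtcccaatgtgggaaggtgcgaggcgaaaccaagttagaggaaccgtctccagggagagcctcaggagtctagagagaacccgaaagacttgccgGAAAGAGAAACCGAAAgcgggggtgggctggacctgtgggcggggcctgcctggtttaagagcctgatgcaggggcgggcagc

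Irf1 held 1 GAS, TTCCCCGAA, beginning 90 bases before the start whose window is shown. The window of its other start, at chr11:53770223-53770472, held neither string. Irf2 held 1 ISRE core, GAAAATGAAA, and 1 GAS, TTCCGAGAA, and Socs1 held 2 overlapping ISRE cores, GAAAGAGAAA and GAAACCGAAA. Over all 32851 promoters of the same length, 2.98% held the ISRE core and 7.02% the GAS. The windows of the other 6 genes, Cd274 included, held neither string, which speaks only of these letters in these windows. The window of Cd274 takes in the start of Plgrkt, a neighbour on the opposite strand that is described with Cd274.

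Total counts lay between 17439049 and 19766604 per tumour, and the floor of 3 counts was worth 0.159 to 0.167 CPM, a value that covers counting error only. CPM, counts scaled to library size, was corrected by the TMM method, and TPM is the level per gene length used to compare genes. After adjustment, edgeR called 0 of 17906 genes at 0.05 (0%), with 0.9996 as the smallest adjusted p; 764 genes had an unadjusted p under 0.05 (4.27%). limma-voom called 0 genes after adjustment and 851 (4.75%) before it. DESeq2, the tool the labels name, called 100 genes of 18547 (0.539%) after adjustment and 4.02% of genes before it. In an exact permutation test the smallest p that 2 against 3 tumours can give is 0.1. Of the 9 genes, 0 passed after adjustment by edgeR, limma-voom or DESeq2, and 1, Cd274, had an unadjusted p under 0.05 by edgeR, where 1.06% of all genes were higher at that level. Log2 fold changes, given as LSN against vehicle, were above 0 for 7 of the 9 genes, as for 53.2% of all genes, with a median of 0.12 against 0.03 over all genes. Without LSN replicate 2, 4 of the 9 were above 0 and the median was -0.20; it was 0.01 without vehicle replicate 1, 0.31 without vehicle replicate 2 and 0.32 without LSN replicate 3.

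Cd274 (ENSMUSG00000016496, chromosome 19, 29367455 to 29388095, plus strand, mm10) was the gene of the set with the smallest p. Reads counted for it numbered 598 and 395 with vehicle (replicates 1 and 2, the order used throughout) and 979, 821 and 981 with LSN (replicates 1, 2 and 3). At 32.2 and 22.1 CPM with vehicle and 54.1, 44.0 and 51.9 CPM with LSN, all 3 LSN values lay above both vehicle values. Among all genes tested, 8.48% separated the groups upward in this way. A log2 fold change of 0.88 ± 0.29 (SE) was fitted, with a 95% interval from 0.15 to 1.62, or 1.11-fold to 3.07-fold. By edgeR the p was 0.0263 before and 0.9996 after adjustment (adjusted p). DESeq2 gave 0.0170 and, as adjusted p, 0.493, and 370 genes had a smaller edgeR p than Cd274. Leaving out vehicle replicate 2 gave an unadjusted p of 0.141 and a log2 fold change of 0.64. Leaving out LSN replicate 1 or 3 gave 0.0723 or 0.0668, with log2 fold changes of 0.82 and 0.85. In pieces of tumour, more cells that express a gene and more RNA per cell cannot be told apart.

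**Figure D1:**
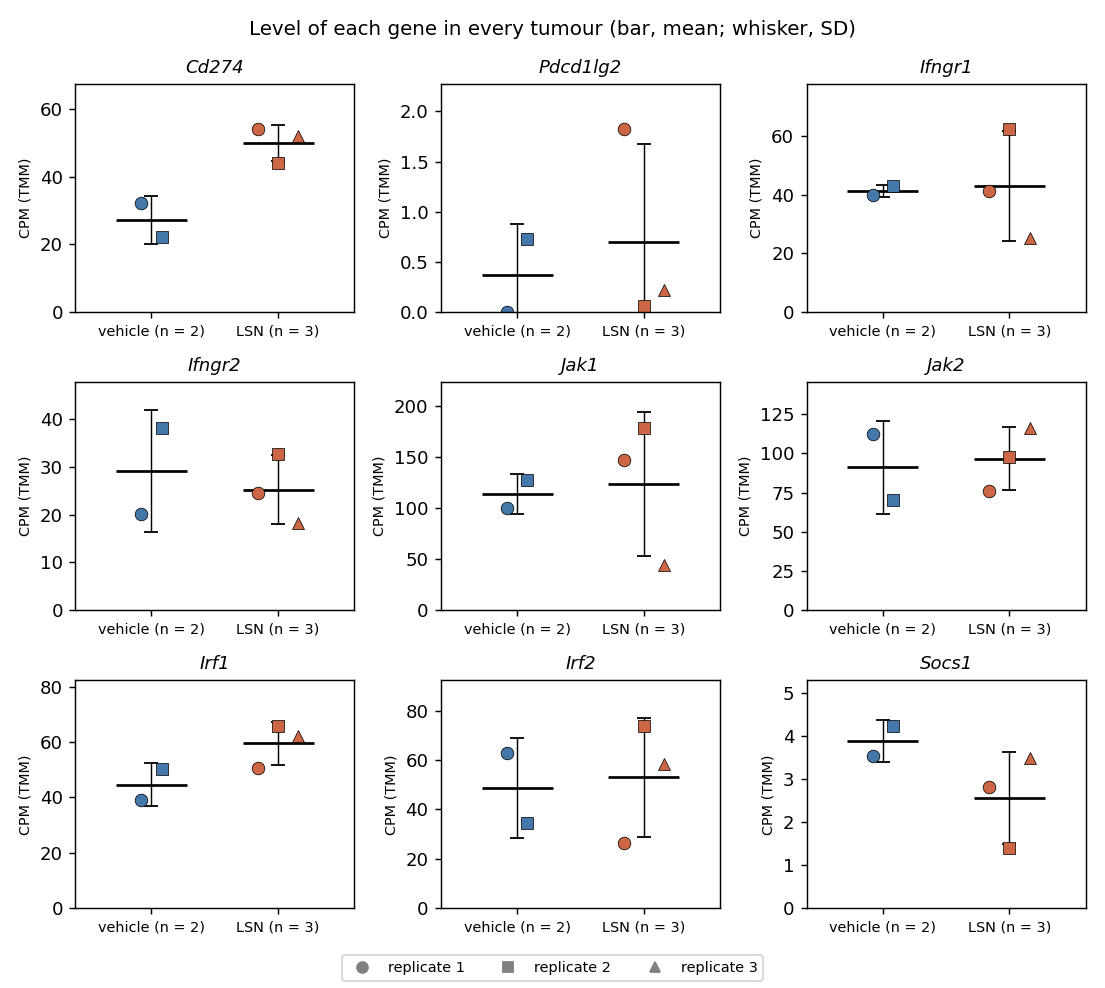
Level of each of the 9 genes in every tumour, in CPM scaled by TMM (vertical axes, each from 0), for vehicle (blue, n = 2) and LSN (orange, n = 3). Symbols mark replicates 1 to 3, bars the mean and whiskers the SD. The groups do not overlap for Cd274 and Irf1 (LSN higher, as for 8.48% of all genes tested) and Socs1 (LSN lower, as for 10.4%).

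PD-L2, the product of Pdcd1lg2 (ENSMUSG00000016498, chromosome 19, 29410919 to 29471157), is the other ligand of PD-1 and is best known from dendritic cells and macrophages. It was counted 0 and 13 times with vehicle and 33, 1 and 4 times with LSN, so that vehicle replicate 1 and LSN replicate 2 were under the floor of 3 counts. The log2 fold change of 0.93 had an SE of 1.89 and a 95% interval from -3.81 to 5.66, and it was -0.05 without vehicle replicate 1. The interval spans the size seen for Cd274 in both directions. Per gene length, Pdcd1lg2 averaged 1.22 TPM over the 5 tumours and Cd274 37.9 TPM, so that PD-L1 was by far the main of the 2 ligand transcripts. The ratio of Cd274 to Pdcd1lg2 per length, with 0.5 counts added to each, was 544 and 13.3 with vehicle and 13.3, 249 and 99.1 with LSN, with full overlap of the groups (exact permutation test, two-sided, p = 0.9; adjusted p = 1 over the 7 pairs of genes compared).

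LSN replicate 1, which had the most Pdcd1lg2, also had the highest summed level of 8 T and NK cell markers, 20.6 CPM. Cd4 alone made up 11.2 CPM of this sum. Cd3e, Cd3d, Nkg7 and Prf1 were higher in vehicle replicate 2 than in LSN replicate 1, and Cd4, Cd8a, Gzmb and Klrb1c were lower. The 8 macrophage and monocyte markers summed to 1089 CPM in LSN replicate 1, below 3091 CPM in vehicle replicate 2 and 1273 CPM in LSN replicate 3. Lyz2 alone gave 785, 2737 and 1052 CPM of these sums. Singly, Adgre1, Csf1r and C1qa were highest in LSN replicate 1, at 23.6, 77.9 and 125 CPM, a reading made after the values were seen. Mrc1, Lyz2, Itgam and Marco were highest in vehicle replicate 2 and Cd68 in LSN replicate 2. Vehicle replicate 1 and LSN replicate 2, with the least Pdcd1lg2, had the lowest T and NK cell sums, 6.78 and 3.70 CPM. The part of these cells in the values of Pdcd1lg2 was not tested.

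Jak2, Cd274 and Pdcd1lg2 lie beside each other on chromosome 19, so the surrounding genes were measured as well. Within 300 kb of Cd274, 10 other genes were tested, Jak2 and Pdcd1lg2 among them, and 7 had a log2 fold change above 0, with a median of 0.13. Over all genes tested, 53.2% were above 0, with a median of 0.03. The nearest is Plgrkt, a plasminogen receptor gene on the opposite strand, whose start lies 65 bases from that of Cd274. The table leaves 64 bases between the genes, at chr19:29367391-29367454, shown on the plus strand because both genes begin at its edges.
Plgrkt to Cd274: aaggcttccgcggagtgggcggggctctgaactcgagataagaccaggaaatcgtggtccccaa

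Plgrkt was at 41.8 and 25.4 CPM with vehicle and 30.2, 24.5 and 35.6 CPM with LSN, and its groups overlapped. The fitted log2 fold change of Plgrkt was -0.16 ± 0.34 (SE). The count of Cd274 was 0.770 and 0.868 times that of Plgrkt with vehicle and 1.79, 1.80 and 1.46 times with LSN. The order of the tumours thus differed between these head-to-head genes, and every LSN ratio lay above both vehicle ratios, a description made after the values were seen and not tested.

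**Figure D2:**
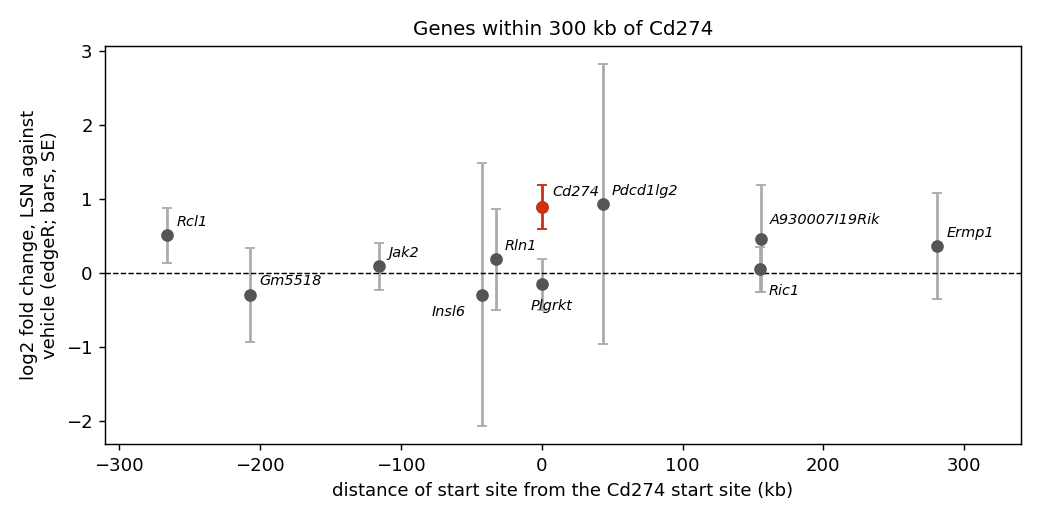
Log2 fold change of LSN against vehicle (vertical axis; bars, SE) for Cd274 (red) and the 10 tested genes within 300 kb, by the distance of their start sites from that of Cd274 in kb (horizontal axis). Cd274 lies at 0.88, and its nearest neighbour Plgrkt at -0.16.

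Among the other neighbours, Rcl1, whose product acts in the making of ribosomes, had a log2 fold change of 0.50, Ermp1, a metallopeptidase, one of 0.36 and Ric1, a trafficking factor, one of 0.05. Insl6, Rln1, A930007I19Rik and Gm5518 were low, at 0.112 to 7.07 CPM, with log2 fold changes of -0.30, 0.18, 0.46 and -0.30. None of the 10 neighbours had an unadjusted p under 0.05 by edgeR. Chromosome 19 as a whole had a median log2 fold change of 0.05 over 555 genes. The within-tumour log2 ratio of Cd274 to Jak2 was -1.80 and -1.67 with vehicle and -0.49, -1.15 and -1.16 with LSN, a difference of 0.80 with no overlap (exact permutation test, two-sided, p = 0.1, the smallest possible; adjusted p = 0.7).

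The receptor subunits did not separate the groups. Ifngr1 (ENSMUSG00000020009, chromosome 10, 19591949 to 19610229), the subunit that binds the ligand, was at 40.0 and 42.9 CPM with vehicle and 41.4, 62.4 and 25.1 CPM with LSN. Vehicle values were nearly equal, while LSN replicate 2 was the highest tumour and LSN replicate 3 the lowest. Chromosome 10 as a whole had its highest and lowest values in the same tumours. With each of its 852 genes centred on its mean log2 CPM, the median was 0.37 in LSN replicate 2 and -0.22 in LSN replicate 3. It was between -0.09 and 0.01 elsewhere. The part of the chromosome in the values of Ifngr1 was not tested. Ifngr2 (ENSMUSG00000022965, chromosome 16, 91547072 to 91565623), the subunit that carries JAK2, was at 20.1 and 38.2 CPM with vehicle and 24.5, 32.7 and 18.3 CPM with LSN. Its highest value was in vehicle replicate 2 and its lowest again in LSN replicate 3.

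For Ifngr1 the log2 fold change was 0.05 ± 0.42 (SE), with a 95% interval from 0.498-fold to 2.17-fold, and it was -0.04 with total counts or limma-voom. For Ifngr2 it was -0.21 ± 0.43 (SE), with an interval from 0.412-fold to 1.81-fold. A change of the size of that of Cd274 lies inside the first interval in either direction. In the second interval a decrease of that size lies inside, and an increase of that size just outside. Per gene length, Ifngr1 exceeded Ifngr2 in every tumour, by 2.63 and 1.48 times with vehicle and 2.23, 2.53 and 1.82 times with LSN. This ratio did not differ between the groups beyond its spread (exact permutation test, two-sided, p = 0.7; adjusted p = 0.98).

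Ifngr2 lies in a cluster of related cytokine receptor genes on chromosome 16. Il10rb, a subunit of the receptors for interleukin 10 and interferon lambda, had the highest value, 66.2 CPM, in LSN replicate 2 and the lowest, 17.2 CPM, in LSN replicate 1. Ifnar1, a subunit of the type I interferon receptor, was even across tumours at 54.9 to 71.5 CPM, with a log2 fold change of 0.13 ± 0.24 (SE). Its partner Ifnar2, picked out after its values were seen, was at 10.3 to 23.2 CPM and, like Ifngr1 and Ifngr2, was lowest in LSN replicate 3. Of these 3 receptors, 0 passed after adjustment.

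Jak1 (ENSMUSG00000028530, chromosome 4, 101152367 to 101265282, minus strand), the kinase bound to IFNGR1, varied most among the 8 genes with counts in every tumour. It was at 99.8 and 128 CPM with vehicle and at 147, 179 and 43.9 CPM with LSN. LSN replicates 1 and 2 were therefore above both vehicle tumours and LSN replicate 3 below both, with 829 counts against 1856 to 3344 elsewhere, a 4.08-fold range. The log2 fold change of 0.12 ± 0.60 (SE) averaged these opposite values, and it was -0.11 by limma-voom. Measured against its own mean over the tumours, Jak1 in LSN replicate 3 was at -1.30 on the log2 scale, lower than all but 3.90% of the 11445 genes with a mean of at least 10 CPM in that tumour, a comparison made after its values were seen.

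Chromosome 4 as a whole was highest in that same tumour, with a median of 0.34 over 1086 genes on that centred scale, against -0.16 to -0.01 in the other 4 tumours. Dnajc6, the auxilin gene that lies near Jak1, was at 191 CPM in LSN replicate 3 and between 82.9 and 231 CPM elsewhere. Raver2, which overlaps the end of the Jak1 gene by a few bases on the other strand, had 10 counts in LSN replicate 3. It had 26 to 88 counts elsewhere and so, like Jak1, was lowest in that tumour. The library kit kept no strand, so a small share of reads could be exchanged between Jak1 and Raver2. Dnajc6 and Raver2 were also picked out after their values were seen.

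Jak2 (ENSMUSG00000024789, chromosome 19, 29251828 to 29313080), the kinase bound to IFNGR2, was steadier, at 112 and 70.2 CPM with vehicle and 75.7, 97.9 and 116 CPM with LSN. On the log2 scale Jak2 differed by 0.08 ± 0.32 (SE), with an interval from 0.610-fold to 1.84-fold, and it was -0.01 with total counts. The order of its tumours was unlike that of Jak1, since LSN replicate 3 had the most Jak2 and the least Jak1. Per gene length the ratio of Jak1 to Jak2 was 0.262 in LSN replicate 3, 0.619 in vehicle replicate 1 and 1.27 to 1.35 in the other 3 tumours. The groups did not differ in this ratio beyond its spread (exact permutation test, two-sided, p = 1; adjusted p = 1).

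**Figure D3:**
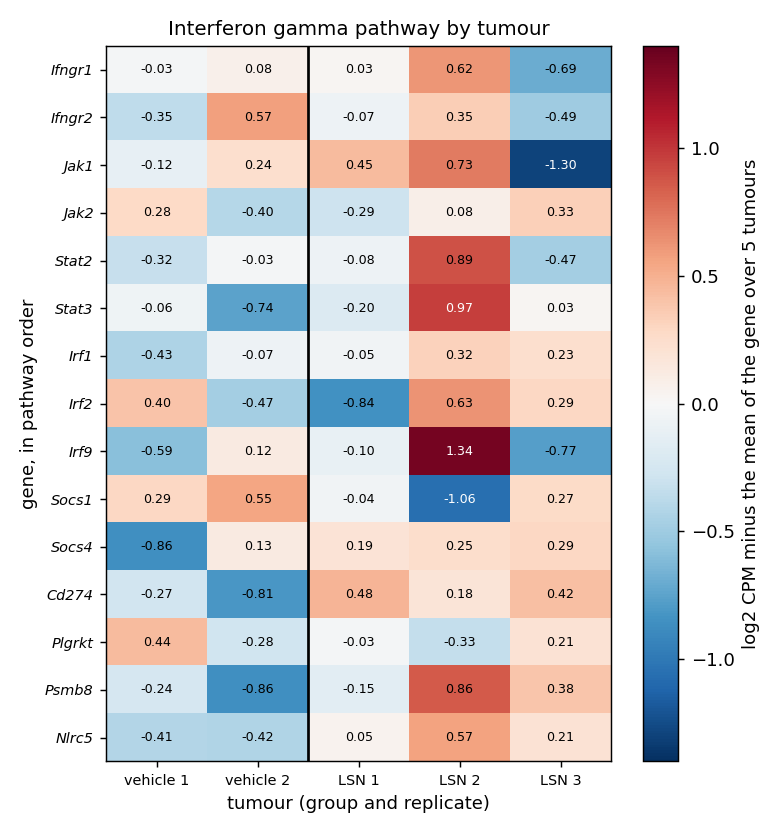
Log2 CPM of 15 genes in the 5 tumours (columns), each minus the mean of that gene over the tumours (colour and printed value), ordered from receptors to kinases, transcription factors, inhibitors and products. Ifngr1, Ifngr2 and Jak1 are lowest in LSN replicate 3, whereas Cd274 is above its mean in all 3 LSN tumours; Pdcd1lg2 is left out because a tumour had 0 counts.

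Irf1 (ENSMUSG00000018899, chromosome 11, 53770014 to 53778374), the transcription factor placed between the kinases and Cd274, was at 39.0 and 50.2 CPM with vehicle and 50.7, 65.8 and 62.0 CPM with LSN. All LSN values exceeded both vehicle values, but LSN replicate 1 exceeded vehicle replicate 2 by a small margin, and with total counts in place of TMM the groups overlapped. On the log2 scale Irf1 differed by 0.41 ± 0.27 (SE), with an interval from 0.840-fold to 2.12-fold (edgeR, unadjusted p = 0.175; adjusted p = 0.9996). Without vehicle replicate 1 it was 0.25. Irf1 lies on chromosome 11, where 72.6% of 1422 genes had a log2 fold change above 0 and the median was 0.34. Measured against its mean, Irf1 was at -0.43 and -0.07 with vehicle and -0.05, 0.32 and 0.23 with LSN. On that scale the medians of chromosome 11 were -0.17 and -0.16 with vehicle and 0.20, -0.07 and 0.25 with LSN. The part of the chromosome in the difference of Irf1 was not tested. A predicted gene on the other strand inside Irf1 had 6 to 34 counts, against 726 to 1228 for Irf1.

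Irf2 (ENSMUSG00000031627, chromosome 8, 46739732 to 46847458), its competitor, showed no such order. It was at 62.9 and 34.4 CPM with vehicle and 26.6, 73.8 and 58.5 CPM with LSN, with the highest and the lowest tumour both in the LSN group. Its fitted log2 fold change was 0.12 ± 0.52 (SE), with an interval from 0.441-fold to 2.69-fold. Per gene length, Irf1 exceeded Irf2 in all 5 tumours, by 1.15 and 2.71 times with vehicle and by 3.54, 1.66 and 1.97 times with LSN (exact permutation test of the difference between groups, two-sided, p = 0.6; adjusted p = 0.98). The ratio of Cd274 to Irf1 per length was 0.904 and 0.482 with vehicle and 1.17, 0.734 and 0.920 with LSN, and the groups overlapped (p = 0.4 in the same exact test; adjusted p = 0.933).

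Socs1 (ENSMUSG00000038037, chromosome 16, 10782240 to 10785536, minus strand), the inhibitor of JAK kinases that the chain itself induces, was the 1 gene of the 9 with every LSN tumour below both vehicle tumours. Among all genes tested, 10.4% separated the groups downward. It was scarce, with 66 and 76 counts with vehicle and 51, 26 and 66 with LSN, or 3.55 and 4.24 CPM against 2.82, 1.39 and 3.49 CPM. LSN replicate 3 had the same count as vehicle replicate 1 and lay below it only after scaling for depth. Socs1 differed by -0.60 ± 0.63 (SE) on the log2 scale, with an interval from 0.222-fold to 1.96-fold (edgeR, unadjusted p = 0.379; adjusted p = 0.9996), and it was -0.30 without LSN replicate 2.

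Socs1 was lowest in LSN replicate 2, the tumour in which Irf1, Ifngr1, Jak1 and Irf2 were highest. The log2 ratio of Socs1 to Irf1 was -3.45 and -3.56 with vehicle and -4.16, -5.53 and -4.14 with LSN. The difference of -1.11, without overlap, had p = 0.3 in an exact two-sided permutation test (adjusted p = 0.933), and it was -0.65 without LSN replicate 2.

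**Figure D4:**
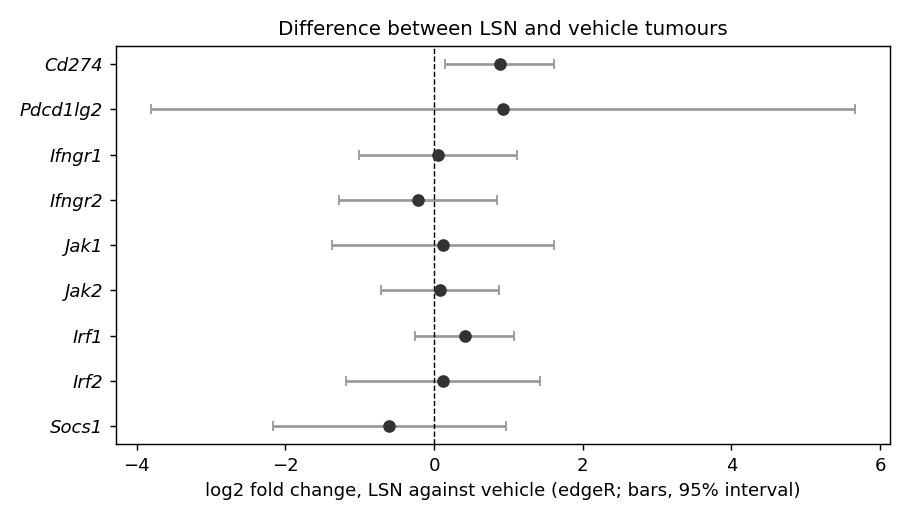
Log2 fold change of LSN against vehicle for the 9 genes (points) with 95% intervals from edgeR (bars). The interval of Cd274, from 0.15 to 1.62, lies above 0 before adjustment for the number of genes, and the other 8 include 0.

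Ordered by mean TPM over the 5 tumours, the genes ran Jak2 (62.9), Jak1 (56.1), Ifngr1 (50.1), Irf1 (45.1), Cd274 (37.9), Ifngr2 (24.0), Irf2 (23.0), Socs1 (3.62) and Pdcd1lg2 (1.22). The ranges over tumours of neighbours in this order overlapped, except between Irf2 and Socs1, since Socs1 and Pdcd1lg2 were below the other 7 genes in every tumour. Cd274 held places 5 and 6 in this order with vehicle and 3, 5 and 3 with LSN.

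The rest of the chain was read from lists chosen with earlier results of these data known. Ifng, the ligand itself, had 0 and 4 counts with vehicle and 0, 0 and 1 with LSN, near the floor in all of them, and was not tested. Of the 13 transducers and regulators, 12 were tested, 8 were above 0 and 4 below, with a median of 0.21. Among all genes tested, 53.2% were above 0, with a median of 0.03. Of the 12, 0 passed after adjustment or had an unadjusted p under 0.05 by edgeR or DESeq2. Their median was 0.08 without LSN replicate 2 and 0.36 without LSN replicate 1. Stat3, activated by interleukin 6 and other cytokines, had the smallest p of the list at 216 and 134 CPM with vehicle and 196, 441 and 229 CPM with LSN, a log2 fold change of 0.72 ± 0.45 (SE). Ptpn6, the phosphatase SHP-1, was at 34.0 and 31.8 CPM against 22.1, 67.4 and 62.5 CPM.

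Stat2 and Irf9, partners in type I interferon signalling, were highest in LSN replicate 2, at 116 and 89.0 CPM, and lowest in LSN replicate 3, at 44.9 and 20.6 CPM. Ifngr1, Ifngr2 and Jak1 were likewise lowest in LSN replicate 3, although Cd274 and Irf1 in that tumour were above both vehicle tumours. Stat2 lies on chromosome 10, as does Ifngr1. Stat2 and Irf9 were picked out after their values were seen.

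Of 6 other IRF genes, 3 were above 0 and 3 below, with a median of -0.03 (0.20 by limma-voom) and a mean of 0.05, and 0 passed after adjustment or had an unadjusted p under 0.05 by edgeR or DESeq2. The median was 0.95, with 5 above 0, without vehicle replicate 2 and -0.35 without vehicle replicate 1. Irf7, a regulator of type I interferon genes, was at 11.1 and 21.6 CPM with vehicle and 28.2, 69.3 and 13.0 CPM with LSN. Irf4, a factor of lymphocytes and macrophages, was at 1.83 and 7.15 CPM against 0.828, 2.09 and 2.96 CPM.

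Of the 7 other SOCS genes, 3 were above 0 and 4 below, with a median of -0.14. The median was 0.29 without vehicle replicate 2, 0.01 without LSN replicate 2, -0.22 without vehicle replicate 1 and -0.49 without LSN replicate 1. Socs4 and Socs7, less studied members of the family, were above both vehicle tumours in all 3 LSN tumours with TMM scaling, but not with total counts. With TMM scaling, 8.48% of all genes tested separated the groups upward. Socs4 was at 44.7 and 88.5 CPM with vehicle and 92.1, 96.3 and 98.6 CPM with LSN, and Socs7 at 125 and 158 CPM against 183, 183 and 163 CPM. Their log2 fold changes were 0.52 ± 0.34 (SE) and 0.32 ± 0.21 (SE), with unadjusted p of 0.180 and 0.191 by edgeR.

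The PD-1 axis was split, with 3 of 6 genes above 0 and a median of 0.06. Leaving out vehicle replicate 2 gave a median of 0.46, and leaving out vehicle replicate 1 or LSN replicate 1 gave 0.10 or 0.09. It fell below 0, at -0.01 and -0.09, when LSN replicate 2 or LSN replicate 3 was omitted. Scaling by total counts gave -0.04. Pdcd1, the gene of PD-1 on T cells, was at 0.538 and 2.46 CPM with vehicle and 0.663, 0.643 and 1.69 CPM with LSN. Cd80, a costimulatory ligand that also binds PD-L1, was lower in all 3 LSN tumours, at 2.10, 1.82 and 1.69 CPM against 2.96 and 4.58 CPM. Among all genes tested, 10.4% were lower in every LSN tumour. The log2 fold change of Cd80 was -1.01 ± 0.55 (SE), with an unadjusted p of 0.122 by edgeR. Rgmb, which binds PD-L2, ranged widely, from 2.81 CPM in LSN replicate 3 to 45.2 CPM in LSN replicate 1.

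Cmtm6 and Cmtm4, whose products keep PD-L1 on the cell surface, were expressed in every tumour. Cmtm6 was at 55.5 and 55.4 CPM with vehicle and 41.3, 65.6 and 80.7 CPM with LSN, and Cmtm4 at 100 and 134 CPM against 132, 145 and 223 CPM. Hip1r, which routes PD-L1 to the lysosome, was at 86.2 and 76.7 CPM against 59.6, 89.9 and 86.0 CPM. For these 3 genes the groups overlapped, and 0 of the 6 passed after adjustment or had an unadjusted p under 0.05 by edgeR.

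Of the 15 interferon gamma targets, 14 were tested, with 12 above 0 and 2 below and a median of 0.49, where 53.2% of all genes were above 0. The 2 below were Cd74, at -0.47, and Ciita, at -0.40. The median was 0.28, with 8 above 0, without vehicle replicate 1 and 0.82, with 14 above 0, without vehicle replicate 2. At an unadjusted p under 0.05 there were 0 by edgeR and 1, Igtp, by DESeq2, against 4.27% and 4.02% of all genes in either direction. Psmb8, an immunoproteasome subunit, was at 49.5 and 32.2 CPM with vehicle and 52.7, 106 and 76.1 CPM with LSN, a log2 fold change of 0.94 ± 0.40 (SE). Igtp, a GTPase of cell-autonomous immunity, was at 12.2 and 15.8 CPM against 46.4, 40.6 and 14.7 CPM, with LSN replicate 3 between the vehicle tumours. Nlrc5, the activator of MHC class I genes, was at 13.2 and 13.1 CPM against 18.2, 26.0 and 20.2 CPM and was picked out after its values were seen.

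The genes whose pattern over the tumours was most like that of Cd274 were sought among 11076 genes with a mean of at least 10 CPM, after predicted genes, clone names and pseudogenes were set aside. Likeness was the root mean square difference of log2 CPM, each gene centred on its own mean over the 5 tumours. The nearest were Tbc1d16 (0.078), Enox2 (0.081), Tubd1 (0.12), Synrg (0.12) and Mrpl55 (0.13), of which all but Enox2, on chromosome X, lie on chromosome 11. That chromosome holds 1422 of the 17906 genes tested, and 72.6% of them had a log2 fold change above 0, with a median of 0.34. The part of the chromosome in these likenesses was not tested. Of the other members, Irf1 was nearest to Cd274, at 0.43, with 1893 genes nearer, followed by Jak2, at 0.46, with 2771 nearer. A likeness over 5 tumours says nothing of shared control.

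The tissue was checked by marker lists. All 7 tumour markers, among them Chga, Syp and Insm1, were present in every tumour, with summed levels of 5058 and 1982 CPM with vehicle and 3189 to 3991 CPM with LSN. Chga and Calca were at 1475 and 1573 CPM in vehicle replicate 1 and at 172 and 61.2 CPM in vehicle replicate 2. Epcam and Syp were also lower in vehicle replicate 2 than in replicate 1, and Uchl1, Ncam1 and Insm1 were higher. Syp was higher and Uchl1 lower in every LSN tumour, as were 8.48% and 10.4% of all genes tested. Cell types that can also express PD-L1 or answer interferon gamma were present at varying levels. Endothelial markers summed to 151 and 316 CPM with vehicle and 55.6 to 86.8 CPM with LSN, with 4 of 4 lower in every LSN tumour. Normal lung epithelium markers summed to 5726 and 7547 CPM with vehicle and 303 to 1491 CPM with LSN, with 4 of 5 lower in every LSN tumour. The share of all genes tested that were lower in every LSN tumour was 10.4%. Macrophage and monocyte markers lay at 763 and 3091 CPM against 613 to 1273 CPM, dendritic cell markers at 45.5 and 127 CPM against 58.7 to 85.4 CPM, and T and NK cell markers at 6.78 and 17.6 CPM against 3.70 to 20.6 CPM, with overlap of the groups for each sum. Of the 6 dendritic cell markers, however, 2, Flt3 and Clec9a, were lower in every LSN tumour.

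Fibroblast markers summed to 483 and 1018 CPM against 267 to 596 CPM, B and plasma cell markers to 49.3 and 223 CPM against 13.0 to 129 CPM, and neutrophil markers to 4.89 and 24.0 CPM against 2.89 to 8.06 CPM. Of the 4 neutrophil markers, 2, S100a9 and Retnlg, were lower in every LSN tumour, as were 10.4% of all genes tested. Markers at 0 in at least 1 tumour were Gzmb and Prf1 of T and NK cells, Xcr1 of dendritic cells and Retnlg of neutrophils. Vehicle replicate 2 had the highest sums of macrophage, dendritic, B cell, neutrophil, endothelial, fibroblast and lung markers, and it had the lowest level of Cd274 of the 5 tumours. The part of these cells in the difference of Cd274, and in those of Irf1 and Socs1, was not tested.

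**Figure D5:**
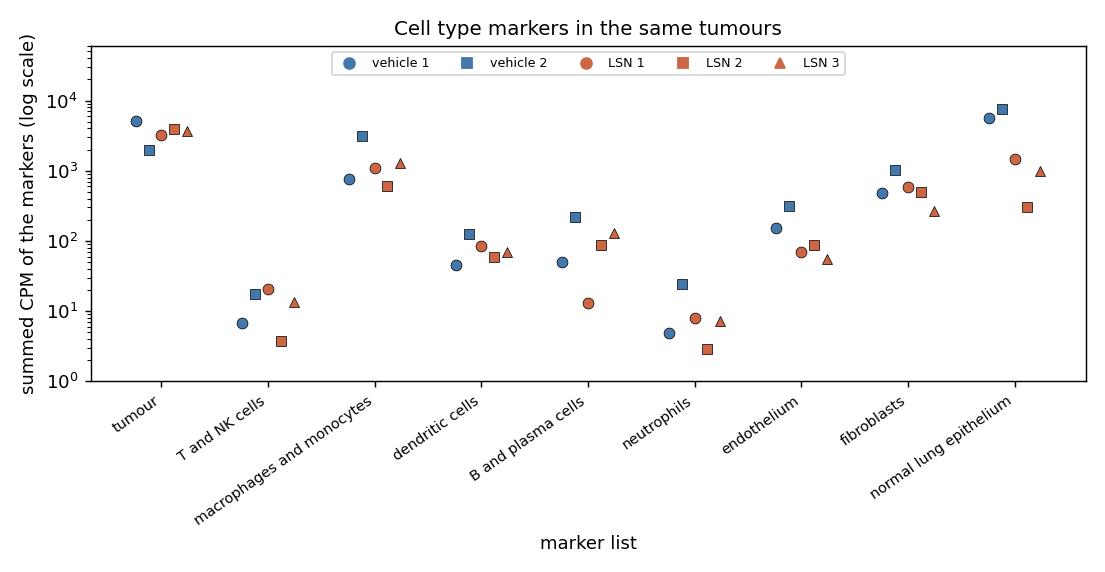
Summed CPM of the markers of 9 cell types (vertical axis, log scale) in the 5 tumours, vehicle in blue and LSN in orange, with symbols for replicates. Endothelial and normal lung epithelium sums are lower in all 3 LSN tumours, and vehicle replicate 2 has the highest sum of most other non-tumour lists.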

How the data were processed

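Per the labels' protocols, RNA was extracted with a column kit and a DNase step, the kit was non-stranded, and sequencing was paired-end on a NovaSeq. The authors deposited raw read counts per gene after mapping to mm10 with STAR, per the labels' protocols; for the STAR version, the counting program and the annotation, nothing is given in the sources used here. The gene length in bases used for TPM is that of the deposited table. Groups follow the treatment label, replicates are numbered in accession order, and no label gives a batch or pairs tumours.

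LSN was compared with vehicle with edgeR 4.0.16 (R 4.3.3), by its quasi-likelihood test on all 5 tumours (robust fit, TMM, filterByExpr at a minimum count of 10 and total of 15, 3 residual degrees of freedom), with Benjamini-Hochberg adjustment over all 17906 genes tested at 0.05. All 9 genes passed the filter. Intervals are at 95% from the fit. The fit was run on simulated counts with the same spread for every gene, smaller than that of most genes here. That run checks the code and says nothing of power in these data. Ratios of 7 pairs of genes were compared by an exact permutation test over the 10 assignments of tumours, with 0.5 counts added. Alternatives were DESeq2 1.42.0, limma-voom (limma 3.58.1), other scalings and filters, a fit that was not robust, and leaving out each tumour.

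The 9 genes and all lists were chosen with earlier results of these data known. Named genes were the 9, the 2 of each list with the smallest p, the PD-1 axis, the neighbours of Cd274 and its 5 nearest genes by pattern; others are said to be picked later. Some genes of the lists are not reported here and were left out of the list counts. A microRNA gene within 300 kb of Cd274 was too low to test and is not described.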

Additional observations from a re-analysis of the deposited data

How the results depend on the processing

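Cd274 kept its direction under every setting run, with log2 fold changes of 0.64 to 1.19 and unadjusted p from 0.0170 to 0.141, as did Irf1 (0.25 to 0.61) and Socs1 (-0.88 to -0.30); adjusted p stayed above 0.49 for all 9 genes. DESeq2 called 14 genes higher and 86 lower where edgeR called 0. Ifngr1 was at -0.0427 by limma-voom and -0.0391 with total counts, Jak1 at -0.106 by limma-voom, Jak2 at -0.0113 and Ric1 at -0.0389 with total counts, and Insl6 at 0.497 by limma-voom. With total counts, 1 of the 9 genes was higher in all LSN tumours, in place of 2 with TMM, where 8.48% of all genes tested were. The difference in the log2 ratio of Cd274 to Pdcd1lg2 was -0.30, and 0.28 with 2 counts added. The cause of these changes was not tested.

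Leaving out each tumour in turn moved log2 fold changes across 0 for Pdcd1lg2 (-0.0548 to 6.70), Ifngr1 (-0.316 to 0.321), Ifngr2 (-0.595 to 0.325), Jak1 (-0.252 to 0.518), Jak2 (-0.213 to 0.471) and Irf2 (-0.246 to 0.631). The number of the 9 genes above 0 ran from 4 to 6, and the number at an unadjusted p under 0.05 from 0 to 1. Among other genes, the ranges across 0 were -0.0600 to 0.760 for A930007I19Rik, -0.0581 to 0.394 for Cmtm6, -0.163 to 0.105 for Hip1r, -0.0438 to 0.332 for Ifnar1, -0.614 to 0.156 for Ifnar2, -0.219 to 0.741 for Il10rb, -2.51 to 4.55 for Insl6, -1.85 to 0.103 for Irf4, -0.208 to 1.02 for Irf9, -1.28 to 0.889 for Pdcd1, -0.472 to 0.253 for Plgrkt, -1.004 to 0.840 for Raver2, -0.127 to 0.227 for Ric1, -0.312 to 0.950 for Rln1 and -0.0953 to 0.649 for Stat2. For log2 ratios they were -2.98 to 2.37 for Cd274 to Pdcd1lg2, -0.273 to 0.552 for Ifngr1 to Ifngr2, -0.721 to 0.569 for Jak1 to Jak2 and -0.262 to 0.971 for Irf1 to Irf2. Without a vehicle tumour, the lone vehicle sample is assumed to vary like the LSN group. No paired analysis was possible because the labels give the tumours no shared numbers. Depth limits Ifng, with 0 to 4 counts per tumour, and it was not tested.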
